A study of Homo sapiens with 27 samples.

Results

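Mitochondrial ribosomal protein genes encode the proteins of the ribosome that works inside mitochondria. The 80 genes described here were all the protein-coding genes with a mean above 1 FPKM whose symbol was MRPL or MRPS followed by a number, together with DAP3, CHCHD1, AURKAIP1 and GADD45GIP1, 4 mitochondrial ribosomal proteins with other names. They were 80 of 14611 genes tested, 51 of the large subunit and 29 of the small subunit, with MRPS30 and MRPS18A placed in the large subunit where their proteins sit. MRPL45 and MRPS21 also fit the naming rule but no identifier in the table matched them, so they were not analysed here. No gene lay just under the minimum, and the lowest member, MRPL57, had a mean of 10.5 FPKM over the 27 libraries, followed by MRPL50 at 11.2 FPKM. All libraries came from U2OS, a human osteosarcoma line, carrying 1 of 3 lentiviral shRNAs for 5 days, either a scrambled sequence (Control) or shRNAs TPR A or TPR D against TPR, the long coiled-coil protein of the nuclear pore basket. Each of the 9 cultures (3 for each shRNA) gave a whole-cell library (Total), a nuclear library (Nuc) and a library of cytoplasm with endoplasmic reticulum (Cyto), all of poly(A)-selected RNA. U2OS is 1 line, so the cultures stand for it alone.

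The mitochondrial ribosome, or mitoribosome, translates the few messages encoded by the mitochondrial genome, which specify membrane subunits of the respiratory chain and of ATP synthase. Its ribosomal RNAs come from the mitochondrial genome, but every one of its proteins is encoded in the nucleus, exported as mRNA, translated in the cytoplasm and imported. The small subunit decodes the message, and the large subunit holds the peptidyl transferase centre and the exit tunnel that faces the inner membrane. Export of each mRNA through the nuclear pore is therefore a step that all of these genes share.

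TPR itself was lower in both knockdowns in the total libraries, with a log2 difference from Control of -2.59 for TPR A (adjusted p = 0.0012, limma) and -2.44 for TPR D (adjusted p = 0.0016, limma). A value of 1 FPKM on a transcript of 1 kb was worth 42.1 to 90.9 reads in the Total, 46.6 to 62.9 in the Nuc and 32.8 to 49.6 in the Cyto libraries. Of the bone and connective tissue genes, VIM (at least 854 FPKM), SPARC (at least 269 FPKM), COL1A1 (20.6 to 58.5 FPKM), RUNX2 (7.85 to 24.5 FPKM) and ALPL (1.03 to 6.04 FPKM) were expressed in all 9 Total libraries, whereas COL1A2 (at most 0.476 FPKM), BGLAP (at most 0.286 FPKM), IBSP (at most 0.0783 FPKM) and SP7 (at most 0.0458 FPKM) were at or near 0. The blood and liver genes HBB (0 FPKM) and ALB (at most 0.0124 FPKM) were too. In Control replicate 2 the library labelled Nuc held 21.8% of its FPKM on the mitochondrial genome and correlated best with the Total libraries, and the library labelled Total held 0.738% and correlated best with the Nuc libraries. The other 8 Nuc libraries held at most 2.42% and the other 8 Total libraries at least 15.8%. The labels were kept, and the N/C changes of the gene sets and of the members named for them are given also without Control replicate 2. Replicate 1 was named in another style than replicates 2 and 3, so values within these sets are also given.

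The 80 genes were expressed well above the typical gene. In the Control Total libraries their median was 65.1 FPKM against 15.7 FPKM for all protein-coding genes tested, 77 of the 80 lay above that value, and 68 lay between 20 and 120 FPKM. The median over members was 56.8, 87.4 and 49.4 FPKM in Control replicates 1, 2 and 3, so the doubtful library was the highest. In replicates 1 and 3 it lay under the Nuc (79.6 and 62.6 FPKM) and Cyto (121 and 101 FPKM) medians of the same cultures. The cause was not tested. MRPL51, a large subunit protein with no bacterial counterpart, was the highest, with 223, 504 and 235 FPKM in Control replicates 1, 2 and 3. MRPL52, another such protein, followed with 213, 327 and 176 FPKM. The replicate 2 value, from the doubtful library, was the highest of the 3 for both genes, and the ranges of the pair overlapped. The small subunit genes MRPS28 (185 ± 87.6 FPKM, SD, n = 3) and DAP3 (164 ± 65.1 FPKM, SD, n = 3), a GTP-binding protein first named for a part in cell death, and the large subunit gene MRPL33 (159 ± 24.0 FPKM, SD, n = 3) came next and did not differ beyond their spread. The same 5 genes led without Control replicate 2.

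At the low end were MRPL57, with 9.73, 8.81 and 7.31 FPKM in Control replicates 1, 2 and 3, MRPL30, with 10.6, 10.2 and 6.93 FPKM, and MRPL50 (10.6 ± 0.345 FPKM, SD, n = 3). MRPS31 (18.2 ± 7.85 FPKM, SD, n = 3), whose near-identical pseudogene copies make its level uncertain, and MRPS36 (21.0 ± 1.27 FPKM, SD, n = 3) were the next lowest. Without Control replicate 2, MRPS14 took the place of MRPS36 among the 5 lowest. MRPS14 had 17.7, 27.5 and 18.0 FPKM in Control replicates 1, 2 and 3. MRPS36 is now known as a subunit of the α-ketoglutarate dehydrogenase complex and is counted here with the small subunit by its symbol alone. The 3 lowest were all of the large subunit and stood apart from the rest, since their highest values lay under those of MRPS31 in each replicate. The highest member exceeded the lowest 37.2-fold, although most of the proteins are present in equal numbers in a mitoribosome.

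**Figure D1:**
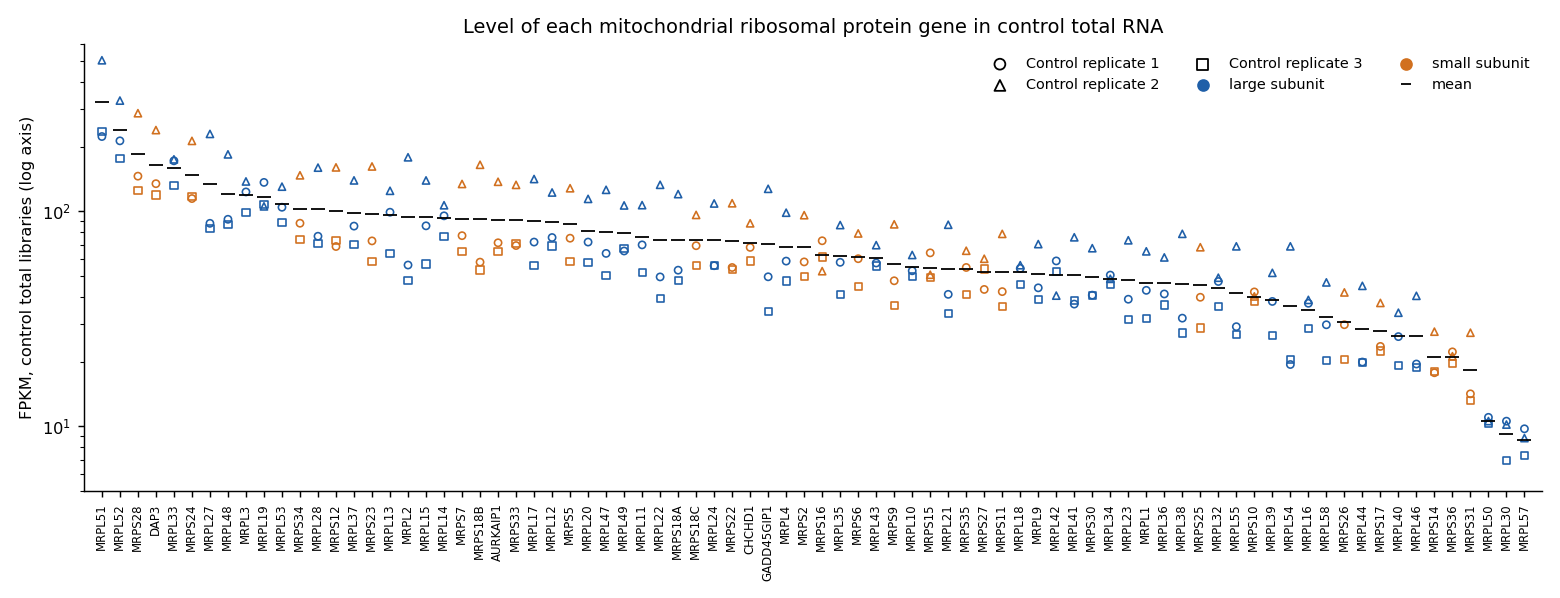
FPKM of each of the 80 genes (x axis, ordered by mean) in the 3 Control Total libraries (y axis, log scale), with markers for replicates, colour for the subunit and a black bar for the mean. Most genes lie between 20 and 120 FPKM, 3 large subunit genes lie near 10 FPKM, and the replicate 2 values (triangles) are above the other replicates for most genes.

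Large and small subunit genes had about the same level. The median log2 level in the Control Total libraries was 5.89 for the large and 6.01 for the small subunit genes, and the difference of medians (-0.12) was small beside the range within each subunit (3.10 to 8.20 and 4.09 to 7.42). Summed over genes, the large subunit held 1.82, 1.77 and 1.76 times the FPKM of the small subunit in the Control Total libraries. This ratio of sums was higher in the Cyto than in the Nuc library of every culture, 1.98 to 2.28 against 1.67 to 1.97. A few abundant genes such as MRPL51 and MRPL52 weigh heavily in these sums, so the medians over genes are used below.

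The members are short genes with few exons. In GENCODE 44 on GRCh37, the median over members of the typical pre-mRNA length was 7990 nt, against 22871 nt for 12333 protein-coding genes with a model, the mature mRNA length 964 nt against 1930 nt, and the exon number 4.75 against 7. Small subunit genes were longer than large subunit genes (median pre-mRNA 9245 nt against 6241 nt). MRPL41 was the shortest, with 677 nt and 2 exons at chr9:140446331-140447007 on the plus strand, and MRPL53 followed with 700 nt. MRPS28 (110981 nt) and MRPS27 (100716 nt, chr5:71510780-71617544, minus strand) were the longest. The genes were spread over 21 chromosomes.

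Many members begin beside another gene. Of the 80, 17 (21.2%) had a protein-coding gene on the opposite strand whose annotated start lay within 1 kb upstream, against 11.2% of 12378 protein-coding genes. MRPL46 and MRPS11, a large and a small subunit gene, were each other's neighbour on chromosome 15, with their outermost starts in GENCODE 44 63 bp apart. MRPL36 lay beside NDUFS6 and MRPL47 beside NDUFB5, both subunits of respiratory complex I, each with starts 41 bp apart. MRPS12 lay beside SARS2, the mitochondrial seryl-tRNA synthetase, and MRPL49 beside FAU, a gene of the cytosolic ribosome.

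Promoter windows of 300 bases (250 before and 50 after the annotated start) were held by RefSeq (GRCh38.p14) for 71 of the 80 members and for 9968 of the protein-coding genes tested. The letters CCGGAAG, the core bound by ETS factors, were found on either strand in 29 of the 71 (40.8%), against 19.7% of the 9968 and 10.7% of all 27305 promoters in the table. They were also in 33.8% of cytosolic ribosomal protein and 30.8% of respiratory chain promoters. The letters AA, any base, then ATGGCGG, a YY1-type element, were found in 19 (26.8%), against 4.85% and 2.26%. In 16 of these 19 (84.2%) the YY1-type letters began 6 to 35 bases after the annotated start. Of the 483 promoters of protein-coding genes that held the letters, 339 (70.2%) also had them after the start, by 1 to 40 bases. The placement is thus common to promoters with these letters. An NRF1-type palindrome (GCGC, any base, then TGCGC) was found in 9.86% of the members, 12% of the protein-coding genes and 24.6% of the respiratory chain promoters. The YY1-type letters were in 14 of 44 large subunit promoters (31.8%), 5 of 27 small subunit promoters (18.5%), 21.5% of respiratory chain and 6.15% of cytosolic ribosomal protein promoters. The letters CCAAT were in 28.2% of the members and 36.7% of the protein-coding genes, CACGTG (E-box) in 7.04% and 10.3%, and TATAAA in 4.23% and 5.39%. No ETS match overlapped a YY1-type match in the members, and 4 members held both. These matches are descriptions of letters in a window and not of bound sites.

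The windows of 3 members follow, 5′ to 3′ on the strand of the gene, with both kinds of match in capitals. MRPL46 (chr15:88467339-88467638, minus strand) is shown for its YY1-type letters 8 bases after the start, MRPL52 (chr14:22829637-22829936, plus strand) because it holds both motifs, the YY1-type letters 98 bases before the start, and had the largest difference in N/C ratio below, and MRPL51 (chr12:6493213-6493512, minus strand) as the most abundant member with 2 ETS matches.
MRPL46: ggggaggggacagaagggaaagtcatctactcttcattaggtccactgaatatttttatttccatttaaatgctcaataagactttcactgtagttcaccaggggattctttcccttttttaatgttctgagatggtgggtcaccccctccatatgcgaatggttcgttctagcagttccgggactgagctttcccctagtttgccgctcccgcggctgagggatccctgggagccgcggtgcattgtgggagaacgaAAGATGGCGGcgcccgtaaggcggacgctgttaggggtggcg
MRPL52: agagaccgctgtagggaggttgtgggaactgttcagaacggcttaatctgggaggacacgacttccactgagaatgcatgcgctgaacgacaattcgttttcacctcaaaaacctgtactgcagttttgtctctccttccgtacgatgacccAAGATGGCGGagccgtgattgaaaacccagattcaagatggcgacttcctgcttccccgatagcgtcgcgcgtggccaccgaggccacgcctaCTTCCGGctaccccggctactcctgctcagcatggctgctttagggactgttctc
MRPL51: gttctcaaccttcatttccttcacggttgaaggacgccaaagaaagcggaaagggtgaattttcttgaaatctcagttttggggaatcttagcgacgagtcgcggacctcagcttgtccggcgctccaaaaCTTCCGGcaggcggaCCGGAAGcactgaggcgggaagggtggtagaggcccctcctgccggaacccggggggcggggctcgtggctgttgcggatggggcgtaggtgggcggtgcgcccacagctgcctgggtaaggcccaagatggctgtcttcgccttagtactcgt

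**Figure D2:**
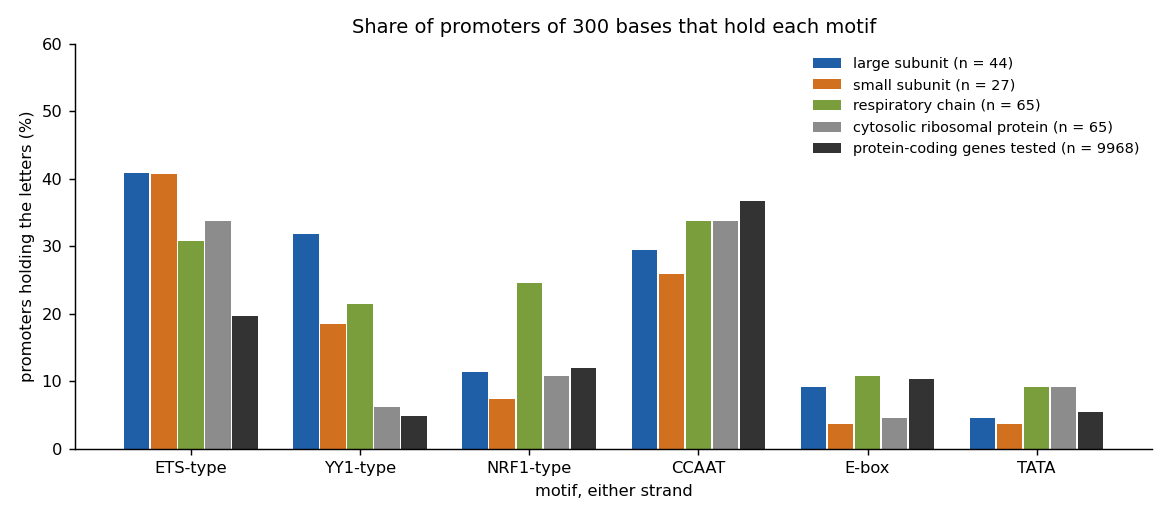
Percent of promoter windows of 300 bases (y axis) that hold each motif on either strand (x axis), for 44 large and 27 small subunit genes, 65 respiratory chain genes, 65 cytosolic ribosomal protein genes and 9968 protein-coding genes. ETS-type letters are in 40.9% and 40.7% of the large and small subunit promoters, and YY1-type letters in 31.8% and 18.5%.

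In control cells the mRNAs of these genes were more cytoplasmic than those of the typical gene. The N/C ratio is the FPKM in the Nuc library over that in the Cyto library of 1 culture, each scaled so that the middle gene is near 1, so that a log2 ratio of 0 marks a typical gene and not equal numbers of molecules. The median log2 N/C ratio of the members was -0.57, -1.01 and -0.51 in Control replicates 1, 2 and 3, and that of all protein-coding genes was 0.04, -0.01 and 0.03. Of the 80, 59 were under 0 in all 3 Control cultures and 3 were above 0 in all of them. With limma, 40 of 80 members were lower in the nucleus than in the cytoplasm at adjusted p below 0.05 (28 of 51 large, 12 of 29 small), where 19.2% of all genes tested were. Only 2 members, MRPS31 and MRPS9, were higher in the nucleus, where 20.2% of all genes were. This fit did not pair the Nuc and Cyto libraries of a culture, although in Control these correlated at 0.281 to 0.405. The count of 42 fell to 18 without Control replicate 2 (16 lower) and to 25 without Control replicate 1. The shares of all genes called in those smaller fits are not given, so these 2 counts cannot be set against 19.2% or 20.2%.

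The members at the extremes were these. MRPS15, the homolog of bacterial S15, had the lowest log2 N/C ratio, with -1.97, -1.40 and -1.89 in Control replicates 1, 2 and 3 (difference -1.75, SE 0.30, adjusted p = 0.00014, limma). MRPL52 had -1.83, -1.98 and -1.29 (difference -1.70, SE 0.34, adjusted p = 0.00059, limma). MRPL12, the large subunit stalk protein that recruits translation factors, had -1.40, -1.92 and -1.60 (difference -1.64, SE 0.34, adjusted p = 0.0007, limma). All 3 values of each of these genes were under -1, and MRPL11 (-1.52) and MRPL41 (-1.42) were the next lowest. These 5 passed the threshold without Control replicate 2 as well.

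MRPS31, a small subunit protein with no bacterial counterpart, stood at the other end with 1.22, 0.59 and 1.32 in Control replicates 1, 2 and 3 (difference 1.04, SE 0.24, adjusted p = 0.0017, limma). MRPS9, the homolog of bacterial S9, had 1.06, 0.46 and 1.00 (difference 0.84, SE 0.24, adjusted p = 0.0074, limma). Both are long genes (42063 and 61892 nt of pre-mRNA), and they were the only members above 0 in all 9 cultures. MRPS22 (0.40), MRPL19 (0.36) and MRPL44 (0.28), an RNase III-like protein of the large subunit, followed and did not pass the threshold.

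Large subunit mRNAs were slightly more cytoplasmic than small subunit mRNAs. The median over large subunit genes minus that over small subunit genes was -0.22, -0.12 and -0.18 in Control replicates 1, 2 and 3, and it was under 0 in all 9 cultures (-0.03 to -0.36). The difference was small beside the range within each subunit (-1.70 to 0.36 for large and -1.75 to 1.04 for small). The respiratory chain genes (mean of culture medians -0.94 ± 0.32, SD, n = 3) and the cytosolic ribosomal protein genes (-1.42 ± 0.28, SD, n = 3) lay below the members (-0.70 ± 0.27, SD, n = 3). The other genes of mitochondrial translation did not share the low ratio. Medians over Control cultures were -0.12 ± 0.21 for 26 assembly factors, 0.13 ± 0.24 for 17 translation factors and 0.11 ± 0.26 for 22 aminoacyl-tRNA synthetase genes (SD, n = 3). The means of culture medians without Control replicate 2 were -0.54 for the members, -0.75 for the respiratory chain, -1.28 for the cytosolic ribosome, -0.0015 for assembly factors, 0.26 for translation factors and 0.26 for synthetases.

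After TPR depletion the N/C ratio of most members was higher than in Control, although no single member passed the test. The median log2 N/C ratio of the members was -0.12, -0.31 and -0.37 in TPR A replicates 1, 2 and 3 and -0.12, -0.44 and -0.39 in TPR D replicates 1, 2 and 3, against -0.57, -1.01 and -0.51 in Control. All 6 TPR-depleted cultures lay above all 3 Control cultures. The median of all protein-coding genes stayed between -0.01 and 0.06. Per gene, the difference from Control had a median of 0.42 with TPR A and of 0.33 with TPR D, which share their Control cultures. It was above 0 for 71 and 79 of the 80 members, against 50.5% and 48.9% of all protein-coding genes. Without Control replicate 2 the medians were 0.26 and 0.19, and 65 and 70 members were above 0. Averaged over both shRNAs the median difference was 0.39, a 1.31-fold higher ratio, and it was 0.22 (1.17-fold) without Control replicate 2, when 67 members were above 0 against 77 with it. Within replicate 1 alone it was 0.42, within replicates 2 and 3 it was 0.36, and within replicate 3 alone it was 0.13. Both depleted cultures lay above the Control culture of the same number for 63 members in replicate 1, 75 in replicate 2 and 40 in replicate 3, against 37.2%, 42.7% and 30.1% of all protein-coding genes. The difference was thus smallest in replicate 3, and it was smaller without the doubtful Control replicate 2.

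With limma, 0 of 80 were called for TPR A, TPR D or their mean at adjusted p below 0.05, where 0% of all genes tested were called in each. At an unadjusted p below 0.05, 2 members (MRPL41 and MRPL52, both higher) passed for TPR A, where 1.47% of all genes did, and the same 2 for the mean of both shRNAs, where 1.72% did. For TPR D the count was 0, where 0.821% of all genes did. The median SE of a member's change was 0.34 for the mean of both shRNAs, close to the median change itself. With the culture as a block, since the Nuc and Cyto libraries of 1 culture varied together, limma also called 0 members, the median SE was 0.32, and 1, 1 and 3 members passed an unadjusted p below 0.05 for TPR A, TPR D and their mean. The shares of all genes that passed in the blocked fit are not given, so these counts cannot be read as above or below a background. No member was called between TPR A and TPR D (0 of 80, where 0% of all genes tested were called with limma and 0.335% passed an unadjusted p below 0.05, also with 0 members), and the median difference between them was 0.03.

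Counted by order alone, 23 of the 80 members had an N/C ratio in all 6 TPR-depleted cultures above all 3 Control cultures, where 3.07% of all genes tested did, and 0 members had them all below, where 1.53% did. The 23 held 18 of 51 large and 5 of 29 small subunit genes. Without Control replicate 2 the same 23 and MRPS15 were above (24 in all, where 4.09% of all genes were) and 0 were below (2.51% of all genes). Leaving out a Control culture can add genes to these counts but cannot remove any, so the 23 had to remain. The members share the 18 libraries behind these ratios, so they are not 80 independent observations. The share of FPKM on the mitochondrial genome, which marks cytoplasm in a Nuc library, was 0.969%, 21.8% and 0.944% in Control, 2.42%, 0.96% and 1.15% in TPR A and 1.15%, 1.58% and 0.774% in TPR D replicates 1, 2 and 3. Its part in the shift was not tested.

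**Figure D3:**
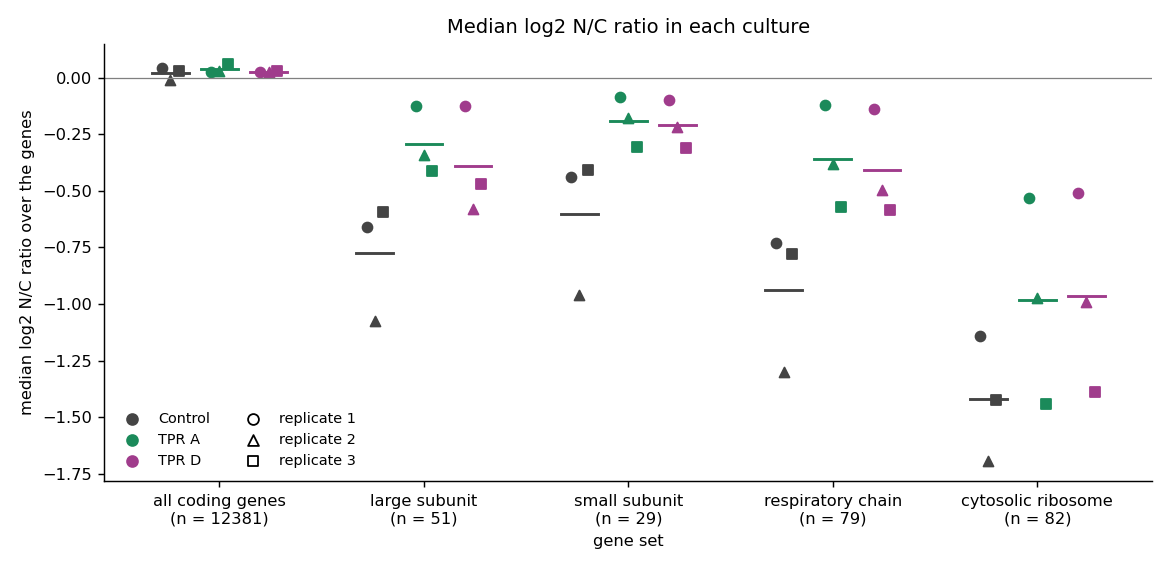
Median log2 N/C ratio (y axis) in each of the 9 cultures for 5 gene sets (x axis), with colour for the shRNA, markers for replicates and bars for the mean of 3 cultures. In the large and the small subunit sets the 6 TPR-depleted cultures lie above the 3 Control cultures, whereas all protein-coding genes stay near 0.

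The largest difference was that of MRPL52 (chr14:23299088-23304246 in GRCh37, plus strand). Its Nuc libraries held 168, 177 and 252 FPKM in Control, 282, 362 and 236 FPKM in TPR A and 281, 495 and 324 FPKM in TPR D replicates 1, 2 and 3. Its log2 N/C ratio was -1.83, -1.98 and -1.29 in Control, -0.12, -0.71 and -0.97 in TPR A and -0.42, -1.13 and -0.62 in TPR D. All 6 depleted cultures were above all 3 Control cultures, with a mean difference of 1.04 (SE 0.42, adjusted p = 0.999, limma), or 0.90 without Control replicate 2. MRPL54, a large subunit protein with no bacterial counterpart, had -0.85, -2.06 and -0.85 in Control and -0.75 to 0.02 in the depleted cultures (difference 0.94, SE 0.51, adjusted p = 0.999, limma). Without Control replicate 2 that difference was 0.54.

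MRPL41, the shortest member, had log2 N/C ratios of -1.08, -1.96 and -1.23 in Control, -0.37, -0.46 and -0.66 in TPR A and -0.45, -0.84 and -0.73 in TPR D (difference 0.83, SE 0.37, adjusted p = 0.999, limma). Its Cyto libraries held 131, 139 and 111 FPKM in Control, 61.6, 86.3 and 70.6 FPKM in TPR A and 62.1, 133 and 79.2 FPKM in TPR D. The TPR A values were all below Control, while 1 TPR D value reached the Control range. GADD45GIP1, a large subunit protein also known as CRIF1, had -0.84, -1.77 and -0.78 in Control and -0.73 to -0.22 in the depleted cultures (difference 0.74, SE 0.49, adjusted p = 0.999, limma). MRPL17 (difference 0.69), MRPL51 (0.65), MRPL36 (0.64) and MRPL12 (0.61) were likewise above Control in all 6 depleted cultures. Leaving out Control replicate 2, the differences were 0.57 for MRPL41, 0.42 for GADD45GIP1, 0.44 for MRPL17, 0.38 for MRPL51, 0.43 for MRPL36 and 0.47 for MRPL12. MRPL36 is the homolog of bacterial L36, a small zinc-binding protein.

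Among small subunit genes, MRPS24 (0.65), AURKAIP1 (0.59), MRPS34 (0.56), MRPS28 (0.47) and MRPS16 (0.29) were above Control in all 6 depleted cultures. These differences without Control replicate 2 were 0.48, 0.34, 0.35, 0.22 and 0.31. AURKAIP1, first named for binding Aurora A kinase, had -1.12, -1.86 and -1.14 in Control and -1.08 to -0.60 in the depleted cultures. MRPS28, the longest gene of the set, had 0.29, -0.40 and 0.40 in Control and 0.51 to 0.62 in the depleted cultures. MRPS12, the homolog of bacterial S12 of the decoding centre, had -0.95, -1.73 and -0.97 in Control and -0.96 to -0.34 in the depleted cultures, and TPR D replicate 2 lay just inside the Control range (difference 0.68, or 0.43 without Control replicate 2). CHCHD1 (0.49, or 0.35 without it), which has a twin CX9C fold, overlapped through TPR A replicate 3. The 3 homologs of bacterial S18 had differences of 0.42 (MRPS18A), 0.35 (MRPS18B) and 0.51 (MRPS18C), and all 3 overlapped Control. They were 0.13, 0.06 and 0.37 without Control replicate 2.

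Other members had smaller differences. DAP3 had 0.24, -0.41 and 0.25 in Control and 0.11 to 0.37 in the depleted cultures, and its difference of 0.19 became -0.03 without Control replicate 2. MRPL44 (0.25) and MRPS30 (0.19) likewise went to -0.01 and 0.01. MRPS31 (0.09) and MRPS9 (0.02), the most nuclear members in Control, were -0.13 and -0.17 without it. MRPL58, a peptidyl-tRNA hydrolase built into the large subunit, differed by 0.30, or 0.18 without it. With all cultures, 3 members were below 0 in the mean of both shRNAs, MRPL19 (-0.19), MRPS27 (-0.03), an RNA-binding pentatricopeptide protein, and MRPL30 (-0.01). There were 13 such members without Control replicate 2, which included these 3 and lay between -0.17 and 0.

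**Figure D4:**
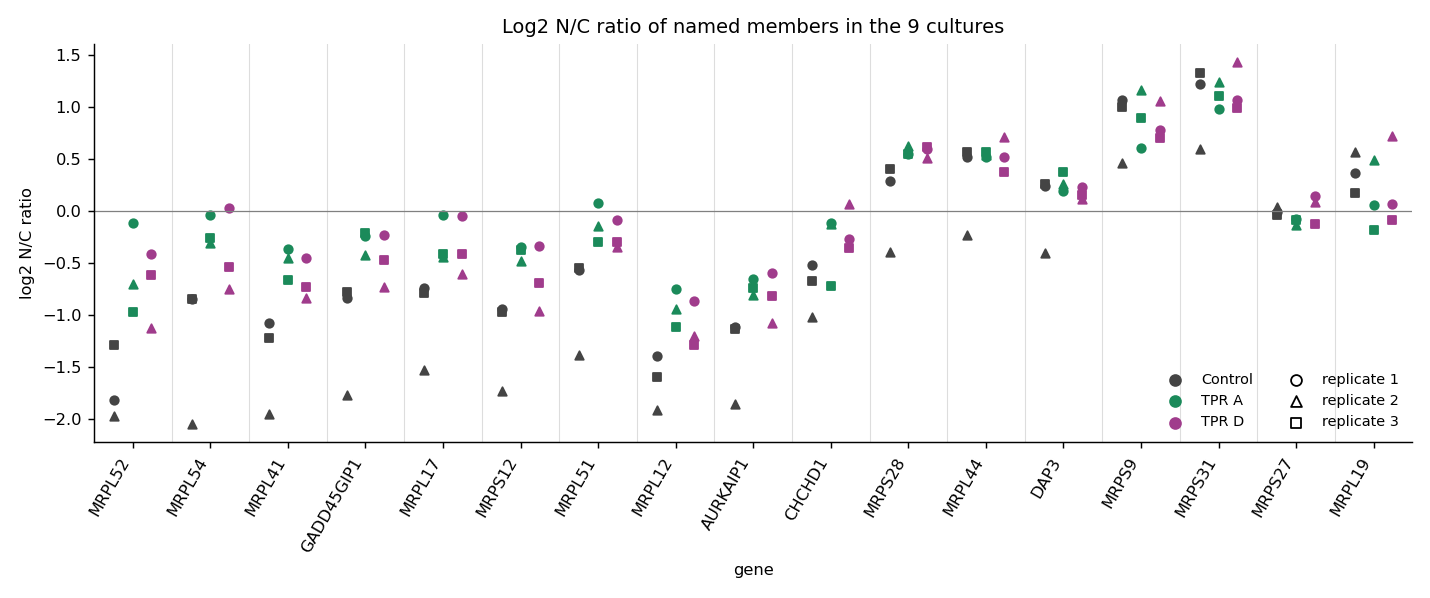
Log2 N/C ratio (y axis) of 17 named members (x axis) in the 9 cultures, with colour for the shRNA and markers for replicates. For MRPL52, MRPL54 and MRPL41 all depleted cultures lie above Control, whereas MRPS27, MRPS9 and MRPL19 overlap with it, and the Control triangle (replicate 2, whose Nuc library is doubtful) is the lowest point for most genes.

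The ratio and its change both varied with gene length among the members. Over 80 members, Spearman's rho with pre-mRNA length was 0.59 for the N/C ratio in Control and -0.56 for its change (0.55 and -0.61 without Control replicate 2), and over 12333 protein-coding genes it was 0.37 and -0.49 (0.30 and -0.39). These are correlations across genes of the same libraries, given as a description. In the shortest members (27 genes, 677 to 4340 nt) the median log2 N/C ratio in Control was -0.95 and the median change 0.49. Other protein-coding genes of those lengths had -0.59 and 0.30. In the middle group (4442 to 12044 nt) members had -0.67 and 0.39 and the others -0.29 and 0.15. In the longest group (12511 to 110981 nt) members had -0.13 and 0.19 and the others 0.18 and -0.07. In each length group the members thus had the lower median ratio in Control and the higher median change. The change subtracts the Control ratio of the same cultures, so a low Control ratio raises it. The 2 medians, and the 2 correlations with length, are therefore not independent findings. Without Control replicate 2 the ratios in Control were -0.76, -0.38 and 0.0029 for members and -0.45, -0.20 and 0.16 for the others, and the changes were 0.35, 0.25 and 0.10 for members and 0.17, 0.07 and -0.05 for the others.

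**Figure D5:**
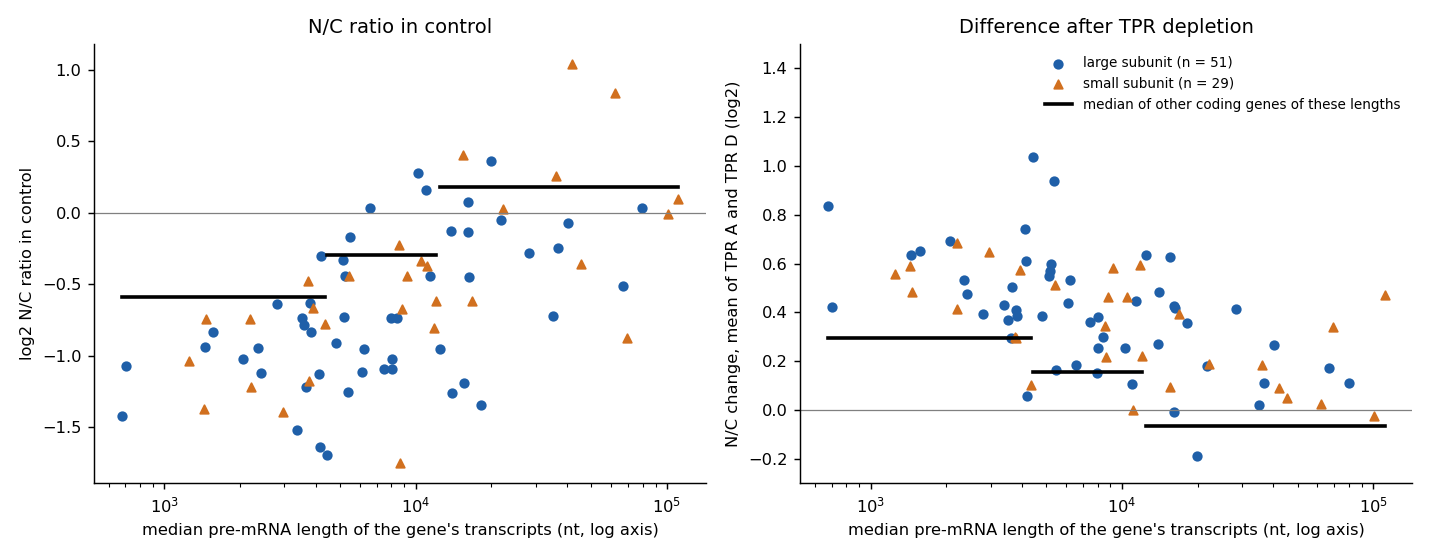
Left, log2 N/C ratio in Control, and right, its difference after TPR depletion (mean of TPR A and TPR D), on the y axes against median pre-mRNA length (x axis, log scale) for 51 large and 29 small subunit genes. Black bars mark the median of other protein-coding genes in each of the 3 length groups (0.30, 0.15 and -0.07 on the right), and most members lie below them on the left and above them on the right. Both panels use the same Control ratios, so they are not independent.

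The members leaned up in the nucleus and down in the cytoplasm, each within the spread between cultures. In the Nuc libraries the difference from Control had a median of 0.16 with TPR A and of 0.20 with TPR D (0.10 and 0.11 without Control replicate 2), and it was above 0 for 65 and 68 of the 80 members against 49.2% and 48.7% of protein-coding genes. In the Cyto libraries the medians were -0.23 and -0.14 (-0.14 and -0.05 without Control replicate 2), with values above 0 for 11 and 15 members against 47.6% and 48.2%. No member was called in either. With limma the counts were 0 of 80 for Nuc TPR A (0.903% of all genes called), Nuc TPR D (0.479%), Cyto TPR A (0.623%) and Cyto TPR D (0.575%). At an unadjusted p below 0.05 these were 0 (12.2% of all genes), 2 (9.13%, MRPL16 and MRPL52, both higher), 5 (11.6%, CHCHD1, MRPL41, MRPL57, MRPL9 and MRPS34, all lower) and 3 (9.42%, MRPS17, MRPS23 and MRPS27, all lower). For the members each of these shares was below that of all genes.

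By order, MRPL1 and MRPL46 were above Control in all 6 depleted Nuc libraries (2 of 80, where 2.97% of all genes were). MRPL51 was below Control in all 6 depleted Cyto libraries (1 of 80, where 2.89% of all genes were). Its Cyto libraries held 526, 673 and 544 FPKM in Control, 292, 390 and 435 FPKM in TPR A and 333, 437 and 347 FPKM in TPR D. The highest depleted value thus lay under the lowest Control value. FPKM is a share of the library, so less RNA from a gene and more from the others cannot be told apart, nor can fewer cells of a state and less RNA per cell.

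No difference in total level passed the test in the fit without a replicate term. The difference had a median of -0.16 with TPR A and of -0.07 with TPR D, but it was 0.07 and 0.16 without Control replicate 2. With TPR D it was also above 0 without TPR D replicate 2 (0.0087) or without TPR D replicate 3 (0.11). With TPR A it was -0.005 without TPR A replicate 3 and 0.08 within replicate 1 alone. The sign thus depended on which cultures were used. With limma 0 of 80 members were called for TPR A (0.821% of all genes called) or TPR D (0.753%). At an unadjusted p below 0.05, 5 members passed for TPR A (MRPL41, MRPL49, MRPL9, MRPS27 and MRPS34, all lower, where 12.6% of all genes passed). For TPR D, 2 members passed (MRPS23 and MRPS27, both lower, where 14.6% passed). MRPS27 came nearest to the threshold. Its Total libraries held 43.3, 60.1 and 53.9 FPKM in Control, 36.5, 35.5 and 42.0 FPKM in TPR A and 27.4, 35.7 and 29.98 FPKM in TPR D. The 3 TPR D values were under the 3 Control values, with a difference of -0.67 (SE 0.18, adjusted p = 0.082, limma), or -0.60 without Control replicate 2 (adjusted p = 0.22, limma). Large and small subunit genes did not separate, with medians of -0.12 and -0.22 for TPR A and -0.05 and -0.08 for TPR D.

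Other gene sets of mitochondrial gene expression had smaller or larger median changes in N/C ratio, and the differences between sets were not tested. The median N/C change for the mean of both shRNAs was 0.39 for the members (0.41 for large and 0.35 for small subunit genes), 0.54 for 79 respiratory chain genes and 0.43 for 82 cytosolic ribosomal protein genes. It was 0.25 for 26 assembly factors (24 above 0), 0.13 for 22 aminoacyl-tRNA synthetase genes (16 above 0) and -0.0032 for 17 translation factors (8 above 0). The medians without Control replicate 2 were 0.33 for the respiratory chain, 0.36 for the cytosolic ribosome, 0.09 for assembly factors, -0.00066 for synthetases and 0.03 for translation factors. No gene of these sets was called with limma, and at an unadjusted p below 0.05 the count was 0 for the last 3 lists, 3 for the respiratory chain and 2 for the cytosolic ribosome. In the Total libraries TRUB2, a pseudouridine synthase of mitochondrial RNA, was the 1 called gene of the last 3 lists, lower with TPR A (log2 difference -1.02, adjusted p = 0.037, limma), and it was lower in the Cyto libraries with TPR A too (-1.04). The large minus small subunit difference in the change (0.07) turned in sign without Control replicate 3 (-0.02) or without TPR A replicate 1 (-0.02), so no order of the subunits is given.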

How the data were processed

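Poly(A)+ RNA of 27 libraries was measured by stranded sequencing. The authors quantified reads with Salmon against GENCODE protein-coding and long non-coding transcripts (genome build hg19, per the labels), combined them per gene with tximport and deposited FPKM values, which are normalized for transcript length and depth. Their DESeq2 comparisons were not used. Transcripts of processed pseudogenes were not among those transcripts, so reads from them may count toward a parent gene, which was not tested. Gene identifiers were matched to GENCODE 44 on GRCh37 (32776 of 34464).

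Each library was scaled by a median-of-ratios factor (0.954 to 1.06), and values were transformed as log2(FPKM + 0.1), which understates changes of low genes. Genes with a mean above 1 FPKM (14611) were tested with limma 3.58.1 (R 4.3.3, eBayes with trend, all 27 libraries in 1 fit, Benjamini-Hochberg over all genes). No covariate was used. N/C changes were interaction terms. FPKM per read of low genes gave depth: 85.9 to 88.9% of low values lay within 0.1 of a whole read. The fit was tested on simulated data. Alternatives were another pseudocount, no minimum, values as deposited, replicate or culture as a block, subunits by symbol, each culture left out, and subsets of replicates. Python 3.11.15, numpy 2.4.6, pandas 2.3.3 and scipy 1.17.1 were used for counts and medians. Intervals from reads cover counting error only and are not given, since the spread between cultures sets the precision. P-values measure the spread between cultures of 1 line.

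The replicate numbers were checked as pairs: deviations from the group means correlated at 0.137 to 0.324 for Control and TPR A Total libraries, all over 0.1, and the block changed no call there. For TPR A and TPR D they did so in Nuc (0.131 to 0.266) and Cyto (0.398 to 0.597), where these groups were compared only through their N/C ratios. The N/C ratios were not paired by number (-0.0422 to 0.28). The Nuc and Cyto libraries of 1 culture correlated at 0.223 to 0.469.

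The members, the lists and the tests were chosen with earlier results of these data known. Genes were named for the 5 highest and lowest levels and N/C ratios in Control, the 5 highest and 3 lowest N/C changes, calls, known roles, gene length and nearness to the minimum. MRPL1, MRPL9, MRPL16, MRPL46, MRPL47, MRPL49, MRPS11, MRPS14, MRPS16, MRPS17, MRPS23, MRPS24, MRPS34 and TRUB2 were named after their values or neighbours were seen, as were the promoter motifs.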

Additional observations from a re-analysis of the deposited data

How the results depend on the processing

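With the replicate block, 1 member was called in the total TPR D comparison (MRPS27, adjusted p = 0.0299, limma) where the fit without it called 0, although the replicate numbers did not pair those libraries. With the block 46 members differed between nucleus and cytoplasm in Control against 42 without it, and the block left the other counts at 0. The count of 42 was 25 within replicates 2 and 3, and 18 to 44 when each culture was left out, lowest without Control replicate 2 and 25 without Control replicate 1. The shares of all genes called in these alternative fits are not given, so the counts of members stand without a background. The median total change with TPR D was 0.54 within replicate 1 alone (an alternative added after seeing the data), against -0.07. Within replicate 3 alone (also added after seeing the data) the median N/C change with TPR A was 0.13 against 0.42. Large minus small subunit in the Control N/C ratio was -0.31 with subunits assigned by symbol, -0.24 within replicates 2 and 3, -0.22 within replicate 1, -0.18 within replicate 3, and -0.24 to -0.12 when each culture was left out, against -0.12. For the N/C change the same difference (0.07) was 0.0077 within replicates 2 and 3, 0.13 within replicate 1, and -0.021 to 0.063 when each culture was left out, lowest without TPR A replicate 1, at -0.019 when Control replicate 3 was left out and 0.0039 for Control replicate 2. The causes were not tested. Of all alternative values, 343 stayed within 1 SD of the Control cultures or, for counts, within 1.5 times, 15 moved further and 3 reversed. The spread between 3 cultures, with a median SE of 0.34 for a member's N/C change, limits what could be called.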
